A study of Homo sapiens with 10 samples.

Results

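The histone cluster genes are the genes of the multigene clusters HIST1, HIST2, HIST3 and HIST4, which encode the linker histone H1 and the core histones H2A, H2B, H3 and H4. They were taken as all gene symbols of the deposited expression table that begin with HIST1, HIST2, HIST3 or HIST4, and 62 of the 20379 genes in the table met this rule. Of these, 6 encode linker histones and 56 encode core histones, with 13 H2A, 19 H2B, 12 H3 and 12 H4 genes. By cluster, 51 belong to HIST1 on chromosome 6, 7 to HIST2 and 3 to HIST3 on chromosome 1, and 1 to HIST4 on chromosome 12.

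Sequencing libraries were made from poly(A) RNA, which oligo(dT) beads retain by its tail, of 2 established human glioblastoma cell lines. Each of DBTRG-05MG and U87 was sampled after 0, 6, 12, 24 and 48 h in 1 mM dbcAMP (dibutyryl cyclic AMP, a cell-permeable cyclic AMP analogue that activates protein kinase A). Every line and time has 1 library, so there were no replicates. All 10 libraries carry the dbcAMP label and none is of untreated cells at a later time. Time in dbcAMP and time in culture therefore cannot be told apart. The series description gives another dose unit and a longer treatment, and a second label on the U87 libraries names the other line; the labels for dose, time and cell line were followed.

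Values were read as FPKM, fragments scaled to the length of the transcript and to the number of mapped fragments. Relative depth was inferred from the commonest ratio of low FPKM values between libraries, not from read totals. It ran from 100 to 116.8% of the DBTRG-05MG 0 h library, and the read counts given below rest on it. The single gene BCYRN1 took between 0.578 and 13.3% of all FPKM. Among neural and glial markers, SOX2 ran from 23.0 to 36.6 FPKM in DBTRG-05MG and was listed at 0 in every U87 library, S100B was at most 0.497 FPKM in DBTRG-05MG and 0 in U87, and GFAP, the astrocyte filament, reached at most 0.508 FPKM in DBTRG-05MG and 0.254 FPKM in the U87 libraries. VIM, a mesenchymal and glial filament, was at least 865 FPKM in DBTRG-05MG libraries and at least 5377 FPKM in U87. This list of 6 markers also held NES and OLIG2. The lowest DBTRG-05MG value of NES was 31.1 FPKM and its highest U87 value was 9.17 FPKM. OLIG2 had its higher maximum in U87, at 2.01 FPKM, against a maximum of 0.462 FPKM for DBTRG-05MG. Its ranges overlapped, with a U87 minimum of 0.307 FPKM. Of 6 markers of other cell types, PTPRC, PECAM1, VWF, KRT5 and CDH1, of leukocytes, endothelium and epithelium, did not exceed 0.328 FPKM in any library. The sixth, CD68, a lysosomal protein used as a macrophage marker, ran between 62.4 and 113.2 FPKM in DBTRG-05MG and between 325.7 and 644.6 FPKM in U87, and its part in the differences between the lines was not tested.

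Most histone cluster genes are transcribed during S phase, when new DNA has to be packed into nucleosomes of H2A, H2B, H3 and H4, with H1 bound to the linker between them. Their mRNAs are unusual in ending without a poly(A) tail: a stem-loop close to the stop codon is bound by SLBP, the stem-loop binding protein, and the RNA is cut just after it with the help of the U7 small nuclear ribonucleoprotein. Some of these genes also make longer, polyadenylated mRNAs from a poly(A) signal farther downstream, a form known from differentiated and non-dividing cells. A poly(A) library therefore records the polyadenylated forms and whatever other histone RNA stays bound to the beads, and these levels are not levels of total histone mRNA.

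The stem-loop was searched in the GENCODE release 29 transcripts (GRCh38) as 16 bases, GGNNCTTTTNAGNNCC on the sense strand, and found in 26 of the 62 genes. Another 30 genes had no match and 1 transcript with a length that is a multiple of 3, as a coding part alone has. A transcript of the coding part alone ends before the stem-loop. The coding part was not checked, and HIST1H4C, with 435 bases against 312 in HIST1H4A, is among the 30. The 3 forms below are shown because they close the short mRNAs of genes whose longer forms a poly(A) library can record. They are written as DNA, 5′ to 3′, with the 4 bases of the loop in capitals.
HIST2H2BE: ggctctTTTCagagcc
HIST1H2BD: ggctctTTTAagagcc
HIST1H4H: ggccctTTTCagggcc
The HIST2H2BE form was the commonest, in 13 genes, and the other 2 forms stood in 5 genes each. In HIST2H2BE the annotated transcript ran on for 1729 bases past the stem-loop, in HIST1H2AC for 1128 bases, in HIST1H4H for 1655 bases and in HIST1H2BD for 39 bases in the transcript that holds it.

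Levels differed with the annotated end of the transcript. A poly(A) signal, AATAAA or ATTAAA, lay within the last 40 bases of an annotated transcript in 18 genes, and 15 of these (83.3%) had a mean of at least 1 FPKM over the 10 libraries, with a median of 2.66 FPKM. Of the other 44 genes, 10 (22.7%) had such a mean, with a median of 0.40 FPKM. HIST1H2BK at a mean of 53.4 FPKM and HIST1H1C at 16.3 FPKM belong to the second group, because their annotation stops at the stop codon and holds no 3′ end that could be searched. Annotation of long transcripts and a measurable poly(A) level cannot be told apart as sources of this split.

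**Figure D1:**
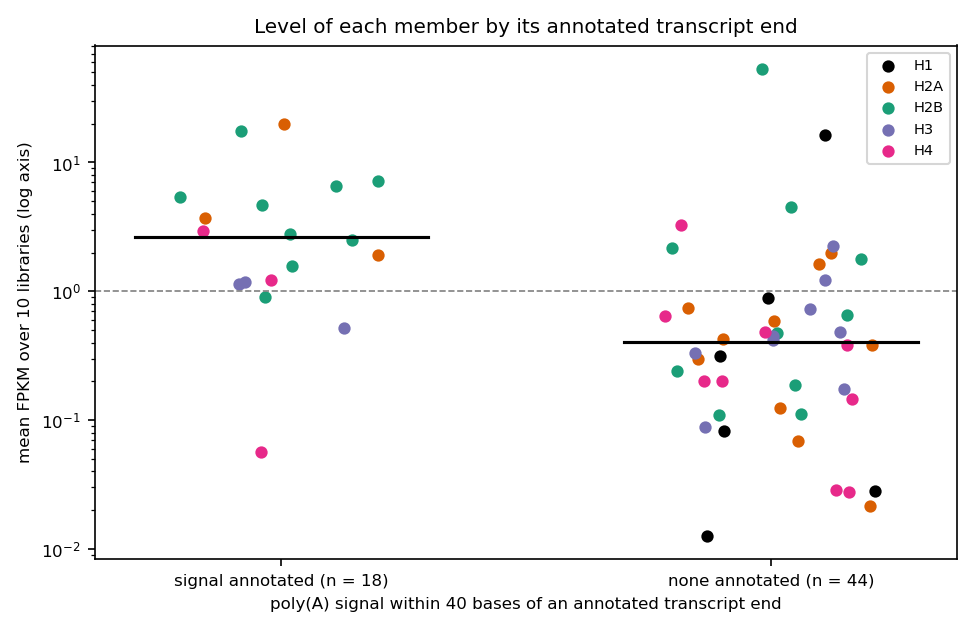
Mean FPKM over 10 libraries (log axis) of each histone cluster gene, split by whether a poly(A) signal lies within 40 bases of an annotated transcript end; points are genes coloured by histone class, black bars are medians (2.66 and 0.40 FPKM) and the dashed line is 1 FPKM. The 18 genes with a signal sit mostly above the line and the 44 others mostly below it.

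Promoters were taken from RefSeq (GRCh38.p14), 250 bases before to 50 bases after the start, and were found for 55 of the 62 genes. The H2A and H2B promoters are known for the octamer ATTTGCAT, bound by Oct-1. The H1 promoters are known for the element AAACACA. The element of the H4 promoters holds the letters GGTCCG. General promoter elements are the CCAAT box and the TATA box, searched as TATAAA. The palindrome TGACGTCA is bound by CREB, the factor phosphorylated by protein kinase A. Each was searched on both strands as an exact match. The octamer was present in 9 of 12 H2A and 13 of 17 H2B promoters and in none of the others, against 1.77% of all 35116 promoters. AAACACA was present in 6 of 6 H1 promoters, against 5.64% of all promoters, and GGTCCG in 10 of 10 H4 promoters, against 11.3%. CCAAT was present in every H1, H2A, H2B and H3 promoter found but in 3 of 10 H4 promoters (30.0%), against 34.6% of all promoters. TGACGTCA was present in 7 of 55 histone promoters (12.7%), against 1.85% of all promoters. HIST1H2BK, HIST1H4E and HIST1H4H were among these 7. The E2F site, searched as TTTCGCGC in the same way, was present in 12 of 55 histone promoters (21.8%), against 0.515% of all promoters. By class it stood in 5 of 12 H2A, 6 of 17 H2B and 1 of 10 H3 promoters. HIST1H2BK holds this site too, and it is not marked in the sequence below.

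The promoters of the 4 genes with the smallest p at 48 h follow, then those of HIST1H2BK, the most abundant member, and HIST1H4H, which both hold TGACGTCA. Capitals mark AAACACA and CCAAT in HIST1H1C, the octamer, CCAAT and TATAAA in HIST2H2BE and HIST1H2AC, CCAAT and TATAAA in HIST1H2BD, the octamer with CCAAT and TATAAA and also TGACGTCA in HIST1H2BK, and TGACGTCA and GGTCCG in HIST1H4H, each on either strand. They lie at chr6:26056421-26056720 (minus strand, HIST1H1C), chr1:149886633-149886932 (minus strand, HIST2H2BE), chr6:26157872-26158171 (plus strand, HIST1H2BD), chr6:26123922-26124221 (plus strand, HIST1H2AC), chr6:27146806-27147105 (minus strand, HIST1H2BK) and chr6:26285485-26285784 (minus strand, HIST1H4H).
HIST1H1C: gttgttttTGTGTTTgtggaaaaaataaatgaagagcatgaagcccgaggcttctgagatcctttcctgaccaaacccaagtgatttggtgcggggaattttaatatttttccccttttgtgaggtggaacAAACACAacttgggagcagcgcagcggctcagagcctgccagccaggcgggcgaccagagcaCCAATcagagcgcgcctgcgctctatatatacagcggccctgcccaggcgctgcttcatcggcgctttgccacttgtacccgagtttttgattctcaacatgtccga
HIST2H2BE: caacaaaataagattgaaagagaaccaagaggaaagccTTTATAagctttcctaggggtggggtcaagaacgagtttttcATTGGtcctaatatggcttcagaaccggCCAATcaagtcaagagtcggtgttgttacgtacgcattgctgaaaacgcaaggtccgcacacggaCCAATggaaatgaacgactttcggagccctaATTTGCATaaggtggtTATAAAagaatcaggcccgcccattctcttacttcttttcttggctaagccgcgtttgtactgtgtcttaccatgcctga
HIST1H2BD: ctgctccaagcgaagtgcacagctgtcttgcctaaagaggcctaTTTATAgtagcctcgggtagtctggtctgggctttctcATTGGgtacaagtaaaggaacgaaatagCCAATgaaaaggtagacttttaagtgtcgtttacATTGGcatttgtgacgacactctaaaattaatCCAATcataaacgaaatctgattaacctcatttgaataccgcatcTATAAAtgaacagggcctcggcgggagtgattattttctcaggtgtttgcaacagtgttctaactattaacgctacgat
HIST1H2AC: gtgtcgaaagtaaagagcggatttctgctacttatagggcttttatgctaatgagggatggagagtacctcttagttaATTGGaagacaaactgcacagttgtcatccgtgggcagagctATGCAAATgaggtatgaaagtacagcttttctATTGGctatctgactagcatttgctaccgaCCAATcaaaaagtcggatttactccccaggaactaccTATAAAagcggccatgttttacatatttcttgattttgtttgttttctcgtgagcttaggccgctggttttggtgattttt
HIST1H2BK: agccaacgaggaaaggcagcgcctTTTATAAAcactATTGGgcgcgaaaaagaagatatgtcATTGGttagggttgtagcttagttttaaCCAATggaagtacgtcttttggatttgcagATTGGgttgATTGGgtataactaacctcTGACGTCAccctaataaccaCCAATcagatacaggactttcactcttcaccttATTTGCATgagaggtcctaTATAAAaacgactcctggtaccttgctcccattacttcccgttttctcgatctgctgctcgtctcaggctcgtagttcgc
HIST1H4H: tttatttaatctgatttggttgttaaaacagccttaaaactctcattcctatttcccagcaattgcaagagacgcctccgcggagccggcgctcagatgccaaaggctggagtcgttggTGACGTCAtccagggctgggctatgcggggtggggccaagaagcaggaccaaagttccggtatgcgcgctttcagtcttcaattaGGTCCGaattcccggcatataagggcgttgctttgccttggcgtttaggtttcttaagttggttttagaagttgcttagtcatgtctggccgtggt
A match describes these letters and not a bound site. The printed HIST1H2AC window covers most of the promoter of its neighbour HIST1H2BC, which is read in the other direction; the windows share 255 bases. There are 9 such H2A and H2B pairs among the 62 genes. A match in the shared bases was counted for both partners, so the H2A and H2B promoter counts are not independent.

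The histone cluster genes together made up a small part of the poly(A) RNA, and a few genes made up most of that part. Their summed level was 189.6, 208.7, 188.6, 265.8 and 374.7 FPKM in DBTRG-05MG and 110.5, 137.1, 110.1, 107.8 and 116.3 FPKM in U87 at 0, 6, 12, 24 and 48 h. The DBTRG-05MG sums were all above the U87 sums, and the highest stood at 48 h in DBTRG-05MG and at 6 h in U87. As a share of all FPKM this was 0.0887% at 48 h and 0.046% at 0 h in DBTRG-05MG, a ratio of 1.93, and 0.0239% at 48 h and 0.0233% at 0 h in U87, a ratio of 1.02. Over all libraries HIST1H2BK held 29.5% of the histone sum, and HIST1H2BK, HIST1H2AC, HIST1H2BD and HIST1H1C together held 59.3%. In bulk RNA fewer cells of a kind and less RNA per cell cannot be told apart. With 1 library a time the sums have no error and carry no test.

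The classes differed in level and in course. H2B sums were the highest in every library, between 123.5 and 209.9 FPKM in DBTRG-05MG and between 58.4 and 72.9 FPKM in U87. The H2A sum ran from 21.3 FPKM at 0 h to 78.3 FPKM at 48 h in DBTRG-05MG, increasing at each time, and was 20.2, 26.9, 17.7, 16.7 and 23.3 FPKM in U87. The linker H1 sum stayed between 11.8 and 16.9 FPKM up to 24 h in DBTRG-05MG and was 55.1 FPKM at 48 h; in U87 it stayed between 9.42 and 10.98 FPKM up to 24 h and was 26.1 FPKM at 48 h. The H3 sum was 6.82, 7.43, 9.37, 17.5 and 14.98 FPKM in DBTRG-05MG and 6.14, 11.9, 6.69, 5.05 and 3.88 FPKM in U87. The H4 sum was 6.91, 6.04, 9.54, 15.5 and 16.4 FPKM in DBTRG-05MG and 7.55, 15.1, 10.7, 3.62 and 4.57 FPKM in U87. In U87 both the H3 and the H4 sums were highest at 6 h, and their 24 and 48 h values were below the 0 h value.

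**Figure D2:**
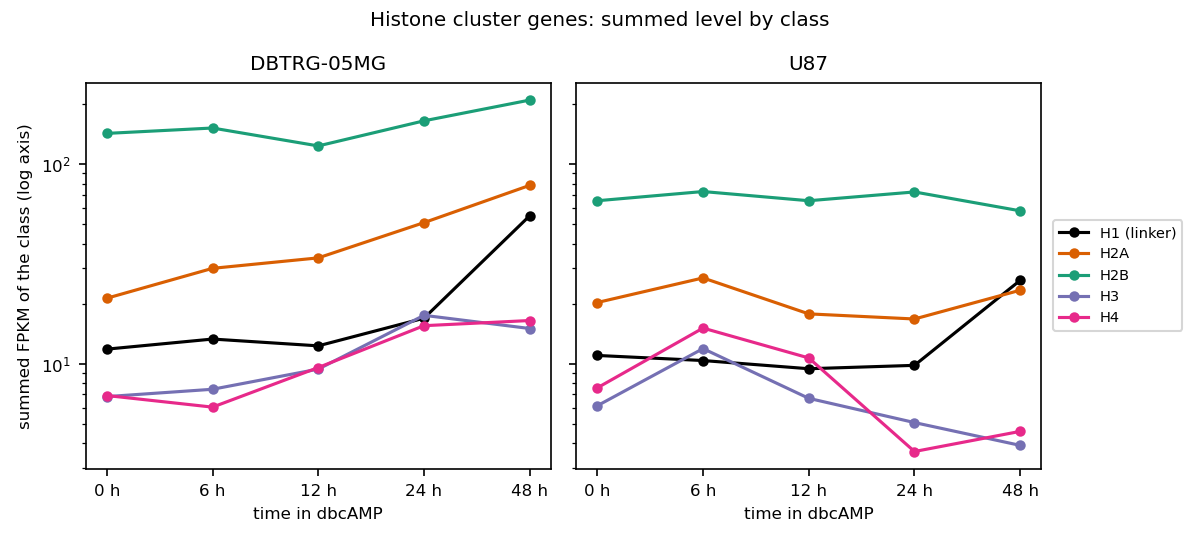
Summed FPKM (log axis) of the linker H1 and core H2A, H2B, H3 and H4 genes against time in dbcAMP, with DBTRG-05MG left and U87 right and 1 library per point. The H1 sum stood at 55.1 FPKM at 48 h in DBTRG-05MG and 26.1 FPKM in U87, while the H3 and H4 sums of U87 were highest at 6 h.

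A mean of at least 1 FPKM over the 10 libraries was needed for a test, and 25 of the 62 members met it: 1 H1, 5 H2A, 12 H2B, 4 H3 and 3 H4 genes. The other 37 were too low to be tested; 18 of them reached 1 FPKM in at least 1 library, up to 2.90 FPKM in HIST1H2BE, and 19 never did. All 62 members were above 0 in at least 1 library, 25 of them in all 10 and 5 in a single library. For 54 members the values lay on whole multiples of a smallest step, taken as 1 read. That step was 0.122 to 0.318 FPKM, and 177 of their 366 values above 0 corresponded to 1 to 3 reads, so a value below about 1 FPKM rests on a few reads. The 17 tested members with such steps had a median of 9 reads per library. The 18 low members with a library at 1 FPKM or more were HIST1H1E, HIST1H2AI, HIST1H2AK, HIST1H2AL, HIST1H2AM, HIST1H2BE, HIST1H2BI, HIST1H2BO, HIST1H3B, HIST1H3C, HIST1H3F, HIST1H3G, HIST1H3I, HIST1H3J, HIST1H4D, HIST1H4I, HIST1H4K and HIST4H4.

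**Figure D3:**
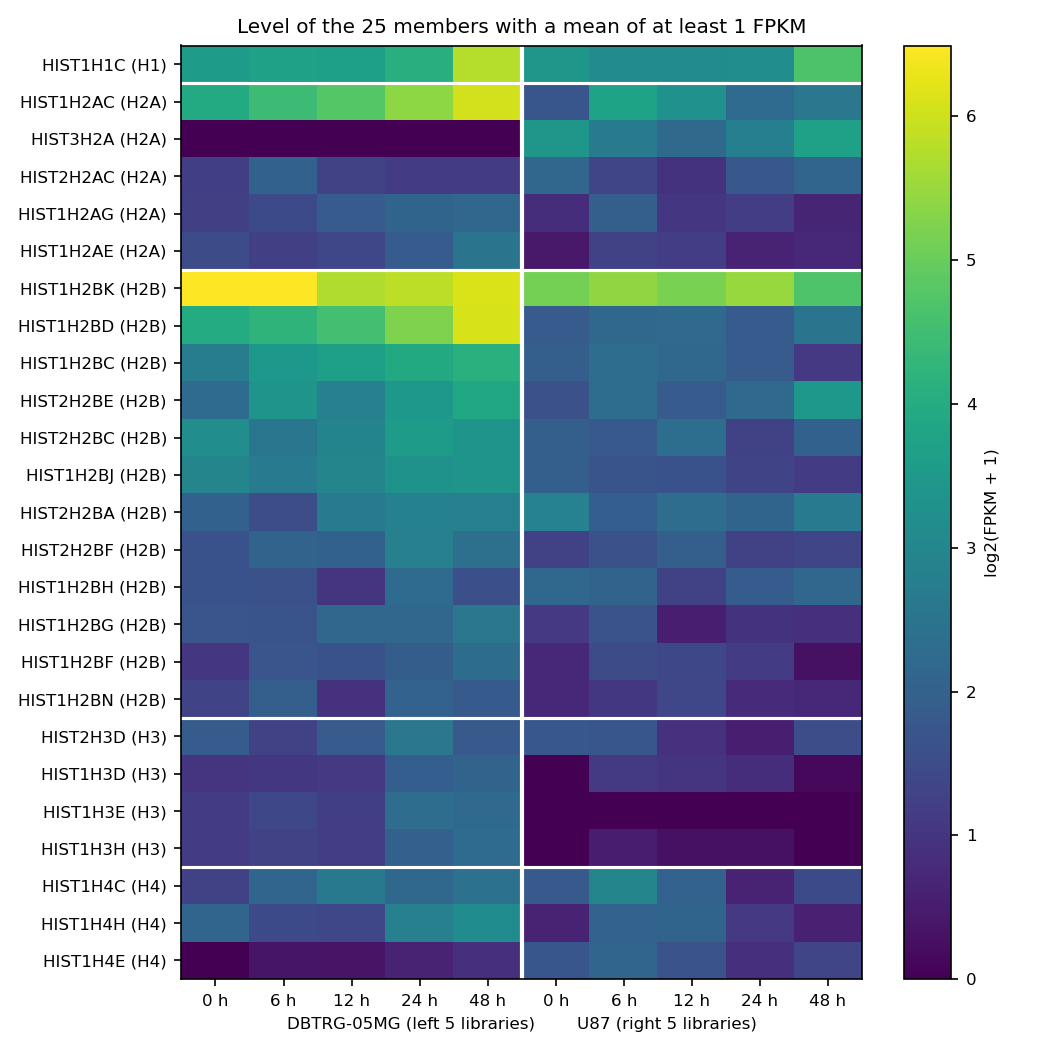
Level as log2(FPKM + 1) of the 25 members with a mean of at least 1 FPKM, in rows grouped by histone class, across the 10 libraries, with DBTRG-05MG left and U87 right and time increasing to the right in each block. HIST1H2BK is the highest row, HIST3H2A is dark (0) in all DBTRG-05MG libraries, and HIST1H3E is dark in all U87 libraries.

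The linker histones were represented by HIST1H1C almost alone. HIST1H1C (chr6:26055787-26056428, GRCh38, minus strand, a gene of 1 exon), which encodes H1.2, one of the main H1 proteins of dividing and resting cells, had 11.1, 12.1, 11.6, 16.1 and 53.5 FPKM in DBTRG-05MG and 9.85, 7.78, 7.83, 8.05 and 24.8 FPKM in U87 at 0, 6, 12, 24 and 48 h. The 48 h library was the highest in each line, 4.83-fold above 0 h in DBTRG-05MG and 2.52-fold above 0 h in U87, and no earlier library exceeded 16.1 FPKM. On the log2(FPKM + 1) scale, on which all fits were made, the mean difference of the lines at 48 h was 1.71 ± 0.26 (SE), with an adjusted p of 0.104 (limma, Benjamini-Hochberg over 12352 genes), which missed the threshold of 0.05. HIST1H1C held between 91.6 and 97.1% of the linker sum in DBTRG-05MG and between 75.1 and 94.8% in U87. HIST1H1E, which encodes H1.4, ran from 0.387 to 1.08 FPKM in the DBTRG-05MG libraries and from 0.629 to 1.60 FPKM in the U87 libraries, and the remaining 4 linker genes stayed below 1 FPKM in every library.

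Among the H2A genes, HIST1H2AC (chr6:26124145-26139116, plus strand) had 14.7, 20.9, 26.5, 41.3 and 64.8 FPKM in DBTRG-05MG and 2.35, 12.5, 8.81, 3.85 and 5.00 FPKM in U87. In DBTRG-05MG each library was above the one before it, 4.42-fold at 48 h over 0 h, whereas in U87 the highest value stood at 6 h, 5.34-fold above 0 h. All 5 DBTRG-05MG values were above all 5 U87 values. HIST3H2A (chr1:228456979-228457873, minus strand) showed the opposite order: it was listed at 0 in every DBTRG-05MG library and had 9.75, 5.45, 3.71, 5.94 and 12.2 FPKM in U87. HIST1H2AE ran from 1.36 to 4.68 FPKM in the DBTRG-05MG libraries and from 0.35 to 1.37 FPKM in the U87 libraries. HIST1H2AG had 1.36, 1.76, 2.64, 3.25 and 3.39 FPKM in DBTRG-05MG and 0.793, 2.91, 1.03, 1.27 and 0.588 FPKM in U87, again with the U87 maximum at 6 h. HIST2H2AC ran from 1.21 to 3.01 FPKM in the DBTRG-05MG libraries and from 0.937 to 3.39 FPKM in the U87 libraries, and its groups overlapped.

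The H2B genes held the largest number of members with a measurable level. HIST1H2BK (chr6:27146418-27146798, minus strand) had 89.1, 87.8, 51.3, 56.7 and 68.8 FPKM in DBTRG-05MG and 33.9, 41.7, 35.3, 44.0 and 24.99 FPKM in U87, with all DBTRG-05MG values above all U87 values and no steady course in either line. Its level is uncertain, because 74.1% of its 50-base stretches also occur in other annotated transcripts, and 61.5% of all its stretches in the H2B gene H2BFS. HIST1H2BD (chr6:26158146-26171349, plus strand) had 14.9, 17.7, 22.3, 36.8 and 67.2 FPKM in DBTRG-05MG and 2.64, 3.47, 3.69, 2.69 and 4.64 FPKM in U87. Each DBTRG-05MG library was above the one before it, and the lines did not overlap. It overlaps the annotated genes AL353759.1 and LARP1P1, and whether reads were counted by strand is not given in the sources used here. HIST2H2BE (chr1:149884459-149886652, minus strand) had 3.80, 9.23, 6.10, 10.1 and 13.9 FPKM in DBTRG-05MG and 2.04, 3.99, 2.62, 3.64 and 10.0 FPKM in U87. The lines took the same order at the first 3 times, with a 6 h value above those at 0 and 12 h, and both were highest at 48 h.

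HIST1H2BC, the partner of HIST1H2AC across the shared promoter, had 5.66, 10.0, 11.8, 14.3 and 16.4 FPKM in DBTRG-05MG and 2.93, 3.96, 3.51, 2.64 and 1.11 FPKM in U87. Both partners were thus highest at 48 h in DBTRG-05MG and at 6 h in U87. The partners HIST1H2AE and HIST1H2BG were highest at these same times. HIST2H2BE was highest at 48 h in both lines, but its partner HIST2H2AC at 6 h in DBTRG-05MG and 0 h in U87. HIST1H2AG and HIST1H2BJ were both highest at 48 h in DBTRG-05MG, but at 6 h and 0 h in U87. HIST1H2BJ, the partner of HIST1H2AG, ran from 5.48 to 9.22 FPKM in the DBTRG-05MG libraries and from 1.22 to 2.87 FPKM in the U87 libraries, its lowest value there at 48 h. HIST2H2BC and HIST2H2BA are annotated as transcribed pseudogenes. HIST2H2BC ran from 4.90 to 10.9 FPKM in the DBTRG-05MG libraries and from 1.45 to 4.05 FPKM in the U87 libraries, and HIST2H2BA from 1.92 to 6.28 FPKM in the DBTRG-05MG libraries and from 2.81 to 6.33 FPKM in the U87 libraries; 63.5% of the 50-base stretches of HIST2H2BA occur elsewhere, so its level is uncertain. The other H2B genes were lower. HIST2H2BF ran from 2.11 to 6.06 FPKM in the DBTRG-05MG libraries and from 1.38 to 2.88 FPKM in the U87 libraries, and HIST1H2BG from 2.22 to 4.98 FPKM in the DBTRG-05MG libraries and from 0.46 to 2.17 FPKM in the U87 libraries. HIST1H2BF ran from 1.05 to 3.93 FPKM in the DBTRG-05MG libraries and from 0.227 to 1.79 FPKM in the U87 libraries, HIST1H2BH from 0.953 to 3.81 FPKM in the DBTRG-05MG libraries and from 1.45 to 3.48 FPKM in the U87 libraries, and HIST1H2BN from 0.902 to 3.12 FPKM in the DBTRG-05MG libraries and from 0.652 to 1.60 FPKM in the U87 libraries. HIST1H2BN overlaps HIST1H2AK and HIST1H2AL in the annotation.

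**Figure D4:**
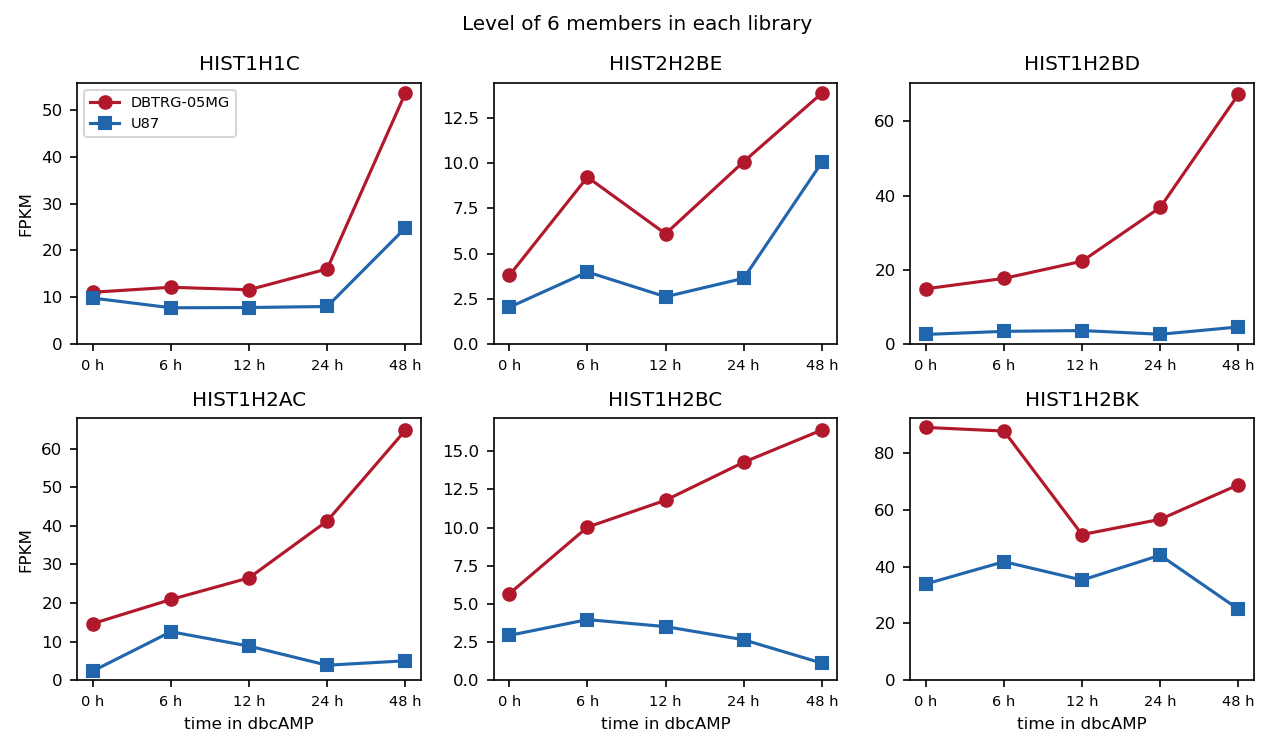
FPKM of 6 members in each library against time in dbcAMP, with DBTRG-05MG as red circles and U87 as blue squares, each panel on its own linear axis from 0. HIST1H1C and HIST2H2BE are highest at 48 h in both lines, HIST1H2BD and HIST1H2AC increase at each time in DBTRG-05MG, and HIST1H2BC is highest at 48 h in DBTRG-05MG and at 6 h in U87.

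The H3 and H4 genes were all low. HIST1H3E was listed at 0 in every U87 library and had 1.22, 1.66, 1.31, 3.97 and 3.66 FPKM in DBTRG-05MG, which corresponded to 5, 7, 6, 17 and 16 reads. HIST1H3H had 1.19, 1.39, 1.28, 2.96 and 3.80 FPKM in DBTRG-05MG and at most 0.408 FPKM in U87, and HIST1H3D had 0.979, 1.07, 1.10, 2.81 and 3.21 FPKM in DBTRG-05MG and 0, 1.15, 1.00, 0.80 and 0.106 FPKM in U87. In these 3 H3 genes the 24 and 48 h values of DBTRG-05MG were above the 3 earlier ones. HIST2H3D ran from 1.44 to 4.95 FPKM in the DBTRG-05MG libraries and from 0.46 to 2.38 FPKM in the U87 libraries, and 80.4% of its 50-base stretches occur in other H3 transcripts. HIST1H4C had 1.45, 3.38, 5.19, 3.59 and 4.33 FPKM in DBTRG-05MG and 2.53, 6.93, 3.15, 0.54 and 1.75 FPKM in U87. HIST1H4H had 3.32, 1.76, 1.62, 6.05 and 7.91 FPKM in DBTRG-05MG and 0.528, 3.10, 3.28, 1.13 and 0.522 FPKM in U87, so that its 6 and 12 h values were its lowest in DBTRG-05MG and its highest in U87. HIST1H4E was at most 0.84 FPKM in DBTRG-05MG and had 2.36, 3.33, 2.17, 0.837 and 1.55 FPKM in U87.

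The change at each time against 0 h, as the mean of both lines, was tested in limma with cell line as a block. No member passed an adjusted p of 0.05 at 6, 12, 24 or 48 h; over all 12352 genes 1 passed at 6, 12 and 24 h each (0.0081%) and 0 at 48 h (0.0%). At 48 h, 4 members had an unadjusted p under 0.05, HIST1H1C, HIST1H2AC, HIST1H2BD and HIST2H2BE, all positive, against 1512 of all genes tested (12.2%), and 3.71% for positive estimates alone. HIST2H2BE differed by 1.75 ± 0.26 (SE) on the log2(FPKM + 1) scale, with an adjusted p of 0.104 in limma. HIST1H2AC differed by 1.46 ± 0.57 with an adjusted p of 0.355, and HIST1H2BD by 1.37 ± 0.40 with an adjusted p of 0.215. At the earlier times 1 member each had an unadjusted p under 0.05, HIST2H2BE at 6 h against 5.31% of all genes, HIST1H2BH at 12 h against 4.47% and HIST2H2BE at 24 h against 3.51%. The estimate at 48 h was above 0 for 20 of the 25 members (80.0%), against 43.2% of all genes, with medians of 0.36 for the members and -0.07 for all genes. These values moved with single libraries. The members' median was 0.04 without the DBTRG-05MG 48 h library, 0.14 without DBTRG-05MG 0 h, 0.59 without U87 0 h and 0.76 without U87 48 h. The count of members with an unadjusted p under 0.05 was 2 without DBTRG-05MG 0 h or 48 h and 9 without U87 48 h.

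In each line alone, the 48 h differences of the members lay higher in DBTRG-05MG than in U87. In DBTRG-05MG, 12 of the 25 were at least 2-fold higher at 48 h than at 0 h on the log2(FPKM + 1) scale and 0 were at least 2-fold lower, against 4.57% and 5.16% of all genes. Of the 12, HIST1H2AE, HIST1H3D, HIST1H3E and HIST1H3H had a mean under 1 FPKM in U87 and passed the filter through DBTRG-05MG. In U87 the 2 members at least 2-fold higher were HIST1H1C and HIST2H2BE, and 0 were at least 2-fold lower, against 2.14% and 4.32% of all genes. The median difference of the members was 0.90 in DBTRG-05MG and -0.01 in U87, and that of all genes tested was 0.02 in DBTRG-05MG and -0.15 in U87. At 6 h in U87, 5 members were at least 2-fold higher than at 0 h, HIST1H2AC, HIST1H2AG, HIST1H3D, HIST1H4C and HIST1H4H, against 2.73% of all genes. The U87 values at 0 and 6 h corresponded to 4 and 15 reads for HIST1H2AG and 0 and 11 for HIST1H3D. They were 10 and 28 reads for HIST1H4C and 2 and 12 for HIST1H4H. HIST1H3D had a mean under 1 FPKM in U87 and passed the filter through DBTRG-05MG. All these differences are sizes in single libraries and carry no test. The 7 members listed as having known polyadenylated forms were HIST1H1C, HIST1H2AC, HIST1H2BC, HIST1H2BD, HIST1H2BJ, HIST1H2BK and HIST2H2BE. Their median differences at 48 h were 1.63 in DBTRG-05MG and 0.63 in U87. Higher values at 48 h stood in 6 of 7 in DBTRG-05MG, against 6419 of the 12352 genes tested, and in 4 of 7 in U87, against 4271. The list was chosen with earlier results of these data known. It holds the 4 members with an unadjusted p under 0.05 at 48 h, so its medians are no separate evidence.

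By class, the median 48 h difference in DBTRG-05MG was 0.90 for 5 H2A, 0.79 for 12 H2B, 1.08 for 4 H3 and 1.05 for 3 H4 genes. In U87 it was 0.29 for the H2A, -0.09 for the H2B, 0.00 for the H3 and -0.36 for the H4 genes. The H3 median of 0.00 comes from HIST1H3E and HIST1H3H, listed at 0 in U87 at both 0 and 48 h, and does not measure a steady level. Both lines gave a higher value at 48 h than at 0 h for 8 members (32.0%), against 23.6% of all genes, and 10 members were higher in DBTRG-05MG and lower in U87, against 27.3% of all genes. In DBTRG-05MG the highest library was the 48 h one for 14 members (56.0%), against 28.2% of all genes. In U87 it was the 6 h one for 10 members, against 25.4% of all genes.

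**Figure D5:**
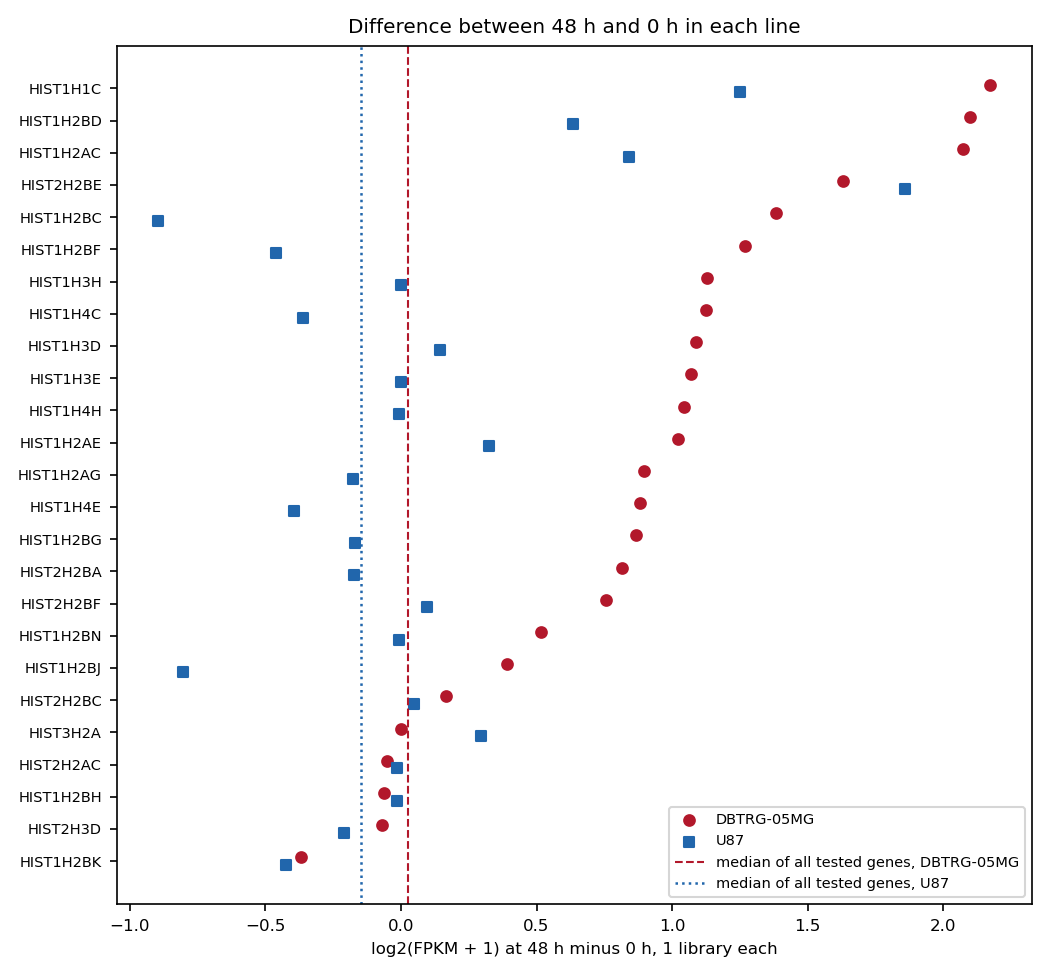
Difference in log2(FPKM + 1) between 48 h and 0 h for the 25 members, ordered by the DBTRG-05MG value, with DBTRG-05MG as red circles, U87 as blue squares and the medians of all 12352 tested genes as lines (0.02 in DBTRG-05MG, dashed; -0.15 in U87, dotted). Most red circles lie right of their line up to 2.17, while the blue squares spread on both sides, with HIST2H2BE and HIST1H1C farthest right.

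The course within each line was tested as a slope over the rank of time, in log2 units per time step. HIST1H2BD rose over time in DBTRG-05MG, by 0.52 ± 0.079 (SE) per step, with an adjusted p of 0.0203 in limma, and was the only member called there; 138 of all genes were called (1.12%). Its adjusted p in limma was 0.0641 without the DBTRG-05MG 6 h library, 0.0658 without the 24 h library, 0.306 without the 48 h library and 0.0705 with a pseudocount of 0.1, each above the threshold, and over all alternatives it ran from 0.0049 to 0.306. In all, 15 members had an unadjusted p under 0.05 in DBTRG-05MG, all with a positive slope, against 17.9% of all genes and 9.83% for positive slopes alone. That count was 5 without the DBTRG-05MG 48 h library, 9 without 0 h, 10 without 6 h or 24 h, 8 with a pseudocount of 0.1 and 9 with log2(hours + 1). Of the 15 members, HIST1H2AE, HIST1H3D, HIST1H3E and HIST1H3H had a mean under 1 FPKM in U87 and passed the filter through DBTRG-05MG. HIST1H4E had a mean under 1 FPKM in DBTRG-05MG. The slope was above 0 for 22 members (88.0%), against 56.0% of all genes. Among the largest of these slopes, HIST1H2AC had 0.51 ± 0.17 (adjusted p = 0.155), HIST1H1C had 0.47 ± 0.16 (adjusted p = 0.159) and HIST1H2BC had 0.32 ± 0.089 (adjusted p = 0.112), by limma. In U87 no gene at all was called (0.0%), and 4 members had an unadjusted p under 0.05, against 12.5% of all genes. Without the U87 0 h library 450 genes were called, 70 with a positive and 380 with a negative slope, none of them a member, and 10 members had an unadjusted p under 0.05; that count was 2 without U87 6 h or 48 h. HIST2H2BE had a slope of 0.36 ± 0.12 per step in U87, while HIST1H2BC, HIST1H2BJ and HIST1H4E had slopes of -0.22 ± 0.089, -0.20 ± 0.064 and -0.20 ± 0.084. The slope in U87 was above 0 for 8 members (32.0%), against 33.8% of all genes; with libraries centred on their median it was above 0 for 15 members, against 58.8% of all genes, and without the U87 48 h library for 12 members.

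The difference in slope between the lines was called by limma for 0 members and for 2 of all genes (0.0162%). It had an unadjusted p under 0.05 for 10 members, all with the greater slope in DBTRG-05MG, against 13.4% of all genes and 10.3% for that direction alone. That count was 16 without the U87 0 h library, 6 without DBTRG-05MG 48 h, and 5 under median centring or with log2(hours + 1). Of the 10 members, HIST1H3E and HIST1H3H had a mean under 1 FPKM in U87 and HIST1H4E in DBTRG-05MG. They passed the filter through the other line, so 1 of their 2 slopes rests on values at or near 0. The smallest p was that of HIST1H2BC, with a difference of 0.55 ± 0.13 per step and an adjusted p of 0.205. HIST2H2BE had nearly equal slopes, 0.34 in DBTRG-05MG and 0.36 in U87, with a difference of -0.02 ± 0.17 per step. Without the U87 0 h library 2 members passed the threshold, HIST1H2AC and HIST1H2BC.

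The lines differed in level for most of the measurable members. The mean difference over the 5 times, DBTRG-05MG minus U87, passed an adjusted p of 0.05 in limma for 18 of the 25 members, against 55.0% of all genes. It was higher in DBTRG-05MG for 16 members, against 35.2% of all genes, and lower in DBTRG-05MG for HIST1H4E and HIST3H2A, against 19.7%. With libraries centred on their median, 14 members passed, 11 higher and 3 lower. The p-values rest on how far the difference between the lines varied over the 5 times, not on a spread over separate cultures. Median centring moves the median of all genes from 0.18 to -0.09. Among members with at least 1 FPKM in both lines, the largest differences were those of HIST1H2BD, at 2.69 ± 0.25 (adjusted p = 2.02e-05), and HIST1H2AC, at 2.20 ± 0.36 (adjusted p = 0.000795). HIST1H1C differed by 0.65 ± 0.17 with an adjusted p of 0.00895 in limma, and 0.207 in the limma fit of line alone, with time left out.

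Part of that count was fixed by the filter. HIST1H4E and HIST3H2A, the 2 members lower in DBTRG-05MG, passed the filter through U87, where they are high, so their differences describe that choice. Of the members tested, 7 had a mean under 1 FPKM in 1 line and passed through the other, and all 7 were called, those 2 included, as were 91.3% of the 1670 genes of that kind. Of the 18 members with at least 1 FPKM in both lines, 11 were called, all higher in DBTRG-05MG, against 49.3% of the 10682 genes of that kind. With no filter 22 of 62 members were called, 15 higher and 7 lower in DBTRG-05MG, and 8 of the 22 had a mean under 1 FPKM; the estimate was then above 0 for 35 of 62 members (56.5%), against 63.2% of all genes, so the lean towards DBTRG-05MG held for the members with a measurable level and not for all 62. All 5 DBTRG-05MG libraries lay above all 5 U87 libraries for 9 members, against 27.1% of all genes, and below them for HIST3H2A, against 13.8%.

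Genes of DNA replication and cell division, with which histone transcription is known to be coupled, lay lower at 48 h. All 47 DNA replication genes were lower at 48 h than at 0 h in DBTRG-05MG, against 47.7% of all genes tested. In U87 45 of 47 were lower, against 63.5%. Their medians were -1.58 in DBTRG-05MG and -1.06 in U87 on the log2(FPKM + 1) scale. All 38 mitosis genes were lower in both lines, against the same shares, with medians of -2.04 in DBTRG-05MG and -1.05 in U87. PCNA, the replication clamp, had 21.5 FPKM at 48 h and 41.4 FPKM at 0 h in DBTRG-05MG, and 11.8 FPKM at 48 h and 28.8 FPKM at 0 h in U87. MKI67, a marker of cycling cells, had 10.3 FPKM at 48 h and 79.9 FPKM at 0 h in DBTRG-05MG, and 12.3 FPKM at 48 h and 53.7 FPKM at 0 h in U87. None of these genes passed the threshold at 48 h in limma. An unadjusted p under 0.05 at 48 h was found for 40 of the 47 replication genes and 31 of the 38 mitosis genes, against 12.2% of all genes. The part of the cell cycle in the histone values was not tested.

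Of all genes tested, 47.7% were lower at 48 h than at 0 h in DBTRG-05MG and 63.5% in U87, with medians of 0.02 in DBTRG-05MG and -0.15 in U87, and the counts of the following lists stand beside these shares. Of 19 genes of histone mRNA 3′ processing, 13 were lower in DBTRG-05MG and 18 in U87, with medians of -0.15 in DBTRG-05MG and -0.56 in U87. SLBP had 48.7 FPKM at 48 h and 66.7 FPKM at 0 h in DBTRG-05MG, and 21.4 FPKM at 48 h and 40.01 FPKM at 0 h in U87. NPAT, the coactivator of histone gene transcription, had 2.10 FPKM at 48 h and 2.62 FPKM at 0 h in DBTRG-05MG, and 1.12 FPKM at 48 h and 2.13 FPKM at 0 h in U87. SRRT, CASP8AP2 and ERI1, an exonuclease of the histone mRNA end, had the largest mean differences in the list with SLBP, from -0.96 ± 0.29 for SRRT to -0.66 ± 0.22 for SLBP, and none passed the threshold (adjusted p 0.23 or higher in limma). Of 17 genes of the poly(A) machinery, 12 were lower in DBTRG-05MG and 15 in U87, with medians of -0.17 in DBTRG-05MG and -0.46 in U87; NUDT21, a subunit of cleavage factor I that guides the choice of poly(A) site, differed by -0.67 ± 0.22.

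Of 21 histone chaperones and related factors, acting both at new DNA and outside replication, 17 were lower in DBTRG-05MG and 20 in U87, with medians of -0.50 in DBTRG-05MG and -0.73 in U87. HJURP, which loads CENPA at centromeres, had 5.82 FPKM at 48 h and 40.4 FPKM at 0 h in DBTRG-05MG, and 20.0 FPKM at 48 h and 52.7 FPKM at 0 h in U87. ASF1B, an H3 and H4 chaperone, had 21.8 FPKM at 48 h and 101.3 FPKM at 0 h in DBTRG-05MG, and 16.7 FPKM at 48 h and 44.1 FPKM at 0 h in U87. Among the histone genes outside the clusters, most of which are known to make polyadenylated mRNA, 9 had a mean of at least 1 FPKM, and their median difference at 48 h was 0.01 in DBTRG-05MG and 0.03 in U87. H2AFX, the variant marked at DNA breaks, had 25.9 FPKM at 48 h and 137.2 FPKM at 0 h in DBTRG-05MG, and 17.6 FPKM at 48 h and 34.2 FPKM at 0 h in U87. H2AFZ, the variant found at promoters, had 87.1 FPKM at 48 h and 124.3 FPKM at 0 h in DBTRG-05MG, and 109.5 FPKM at 48 h and 195.5 FPKM at 0 h in U87.

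The linker variant H1F0, known from cells that have stopped dividing, had 148.3, 99.2, 46.5, 136.8 and 192.9 FPKM in DBTRG-05MG and 38.6, 17.5, 8.57, 51.3 and 55.8 FPKM in U87. It was lowest at 12 h in both lines and highest at 48 h in both, and at every time it was above the whole linker sum of the clusters in DBTRG-05MG. H1FX, another replication-independent linker histone, had 106.0 FPKM at 48 h and 75.3 FPKM at 0 h in DBTRG-05MG, and 133.7 FPKM at 48 h and 72.3 FPKM at 0 h in U87. H2AFJ had 11.1 FPKM at 48 h and 6.64 FPKM at 0 h in DBTRG-05MG, and 3.27 FPKM at 48 h and 1.88 FPKM at 0 h in U87. H3F3B, an H3.3 gene, had 153.8 FPKM at 48 h and 118.3 FPKM at 0 h in DBTRG-05MG, and 125.6 FPKM at 48 h and 102.9 FPKM at 0 h in U87. None of these 4 passed the threshold at 48 h by limma.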

How the data were processed

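Poly(A) RNA was sequenced in 10 libraries, 1 for each of 2 cell lines and 5 times. The submitters' processing notes name HISAT, Bowtie2, RSEM and hg38, without versions. The deposited values were read as FPKM; the unit is not given in the sources used here and was inferred from the values. Zeros in the deposited values are written as 0.002 and were read as 0. After adding 1 and taking log2, 12352 genes averaging 1 FPKM or more were fitted by limma 3.58.1 under R 4.3.3 (empirical Bayes, mean-variance trend), with Benjamini-Hochberg adjustment over all of them and a threshold of 0.05. Changes at each time and the difference between the lines used line and time as factors, so the pairing by cell line comes from the design and leaves 4 residual degrees of freedom; slopes used the rank of time within each line, with 6. With 1 library for each line and time, p-values measure the disagreement between the lines or the scatter around a straight course. Members and gene lists were chosen with earlier results of these data known. Every member averaging 1 FPKM is named with values, lower ones only where a library reached 1 FPKM, and from each other list up to 4 genes with the largest mean difference at 48 h plus a fixed set. Gene positions came from GENCODE release 29 and promoters from RefSeq. The fits were tested on simulated data. Alternatives were the pseudocount, the filter, scaling, no mean-variance trend, no block (line left out for the changes, time for the line difference), other time scales and leaving out each library. Python 3.11.15 served for the rest.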

Additional observations from a re-analysis of the deposited data

How the results depend on the processing

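The count of members called at each time against 0 h was 0 under every alternative run, and no named result with an unadjusted p under 0.05 reversed its direction in any of them. Called members for the line difference numbered 18, and 7 of 7 with a mean of at least 5 FPKM, where fewer members were tested, against 22 of 62 with no filter (15 higher and 7 lower). With time left out of the fit the count was 16, at which HIST1H1C and HIST2H2BE were no longer called. Leaving out 1 library gave 13 to 20. For the DBTRG-05MG slope the count was 1, against 0 with a pseudocount of 0.1, 3 with time in hours, 0 with log2(hours + 1) and 0 to 2 without 1 library (0 without DBTRG-05MG 6, 24 or 48 h, 2 without DBTRG-05MG 12 h, U87 0 h or U87 48 h); for the difference in slope it was 0, and 0 to 2 without 1 library. The cause was not tested. Centring on the median moved the share of all genes with an estimate above 0 from 43.2 to 57.0% at 48 h, from 59.7 to 45.3% for the lines, from 33.8 to 58.8% for the U87 slope and from 64.9 to 46.2% for the difference in slope; 22 of 25 members were then above 0 at 48 h and 15 for the U87 slope. The log2 ratio of the histone share at 48 h to 0 h was 0.95 in DBTRG-05MG, 1.32 without the top member of each class and 0.92 with BCYRN1 left out of the total; in U87 it was 0.033, with -0.0814 and 0.0053 under these settings.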
